A study of Mus musculus with 6 samples.

Results

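The comparison described here set the 2 arrays of mouse embryonic fibroblasts that received Gadd45a against the 4 arrays of both controls pooled, with the replicate number as a block. All 6 arrays of the series belong to it. Every culture was infected with the factors the labels abbreviate SKO, which they do not spell out, and was profiled on day 8 of reprogramming, after 6 days in a serum medium with LIF. The groups differed in what was added to SKO: Flag, Gadd45a (labelled Ga), or G39A, which the labels call a negative mutant of Gadd45a. Each group has 2 arrays, numbered replicate 1 and replicate 2. Whether the replicates are separate cultures is not stated in the labels, so a p-value here reflects the spread among 6 arrays, which may be technical. They also give no promoter, virus type or share of infected cells, and in such bulk RNA fewer cells of a type and less RNA per cell cannot be told apart.

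Members were the probes whose Gadd45a array could be placed above, between or below both controls within each replicate number. A spot had to be well above background, or dim with its bound below the brighter spot. This kept 22307 of 41174 probes, and the brightest probe of each gene gave 14509 genes, of which 2332 carry only an identifier. Of these, 14098 were well above background on all 6 arrays. The other 411 were dim somewhere and could be placed only where they differed. They are in the model and its adjustment, but the gene lists, and the position counts except where stated, use the 14098.

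Gadd45a is a small nuclear protein induced by DNA damage and other stress. It has no enzymatic activity of its own and acts through partners: it binds the kinase MAP3K4 upstream of p38 and JNK, the cell cycle inhibitor p21 (Cdkn1a), the replication clamp PCNA and the mitotic kinase CDK1, and it has been linked to repair-based removal of DNA methylation. In fibroblasts, reprogramming factors themselves evoke stress, cell cycle arrest and secretion of cytokines. The pooled comparison asks which transcripts stand apart from both the Flag control and the mutant.

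The labelled cell type was borne out by its markers: 11 of 12 fibroblast markers were well above background on all 6 arrays, Dcn failing this on the Gadd45a array of replicate 1. Replicate numbers also differed. Pou5f1 and Cdh1 were bright on all 3 replicate 1 arrays and dim on all 3 of replicate 2, so neither could be placed, nor could Sox2 and Nanog. Replicate 1 lay on 2 slides, with the G39A array alone on its slide, and the arrays of replicate 2 shared another slide. On the Gadd45a arrays 57.0% and 59.8% of spots were well above background, and on the controls 59.6% to 62.9%.

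Among genes bright on all 6 arrays, Slc17a6 was higher with Gadd45a than in the pooled controls, and Capn6 and Plxdc1 were lower, at an adjusted p under 0.05 (limma with Benjamini-Hochberg adjustment). Slc17a6 is a vesicular glutamate transporter of neurons, Capn6 a calpain of embryonic tissue without protease activity, and Plxdc1 a transmembrane protein known from tumour endothelium. In all, 5 of 14509 genes (0.0345%) met that threshold. The other 2, Fam183b and the unclassified cDNA A830010M09Rik, were dim on every control array and entered only because they were bright with Gadd45a, so they are described by bounds alone. Values below are the scanner's processed signals before scaling between arrays, in the order Flag, Gadd45a, G39A, and differences are on the scaled log2 scale.

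The Slc17a6 probe (chr7:58924553-58924612, mm9, plus strand) read 201, 727 and 218 in replicate 1 and 149, 374 and 153 in replicate 2. Both Gadd45a arrays lay above all 4 controls, and the controls of a replicate lay close together. The difference was 1.62 ± 0.121 (log2, SE; adjusted p = 0.0406), and a further probe of the gene gave 1.59. The differences were 1.81 and 1.42 against Flag and 1.89 and 1.35 against G39A, in replicates 1 and 2. Other neural markers were measured beside it: Tubb3, Nes, Sox10 and Map2 were well above background on all 6 arrays, while the synaptic vesicle gene Syp was on none. The summed neural marker signal was 8474, 11339 and 8838 in replicate 1 and 5431, 6132 and 5722 in replicate 2. It was thus highest on the Gadd45a array of each replicate, as Slc17a6 was. The wider neural list (11 genes, Slc17a6 among them) was not higher in both replicates. Its median difference from the control mean was 0.33 in replicate 1 and -0.02 in replicate 2. In replicate 2, 4 of its genes stood above both controls and 3 below. Of the 4 bright markers in the sum, 1 was higher and 0 lower at an unadjusted p under 0.05. Over all genes bright on all 6 arrays these shares were 5.52% and 7.39%. The part of the summed signal in the result was not tested.

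Capn6 (chrX:140237100-140237159) read 699, 243 and 778 in replicate 1 and 3385, 1093 and 2771 in replicate 2. Within each replicate the Gadd45a array was far below both controls, although replicate 2 was brighter throughout, so that the groups overlap across replicates. The gene fell by 1.48 ± 0.098 (adjusted p = 0.0357).

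Plxdc1 (chr11:97784556-97784615) read 392, 188 and 428, and then 1255, 461 and 1133. Its pattern was like that of Capn6: the Gadd45a array was lowest in each replicate, and replicate 2 was brighter. It fell by 1.18 ± 0.0879 (adjusted p = 0.0406).

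For A830010M09Rik and Fam183b, not well above background on any control array, the ratios are lower bounds. The A830010M09Rik probe (chr3:25765141-25765200) read 4.05, 57.2 and 4.42, and then 3.51, 72.4 and 4.42, which makes it at least 3.42-fold higher with Gadd45a. Fam183b (chr11:58606339-58606398) read 16.8, 43.0 and 19.8, and then 16.2, 43.5 and 18.2, or at least 2.30-fold higher. The bound sets the Gadd45a mean against the higher of the dim spot and the faintest spot well above background on that array. Their p-values rest on control signals below the faintest reliable spot and are not given.

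**Figure D1:**
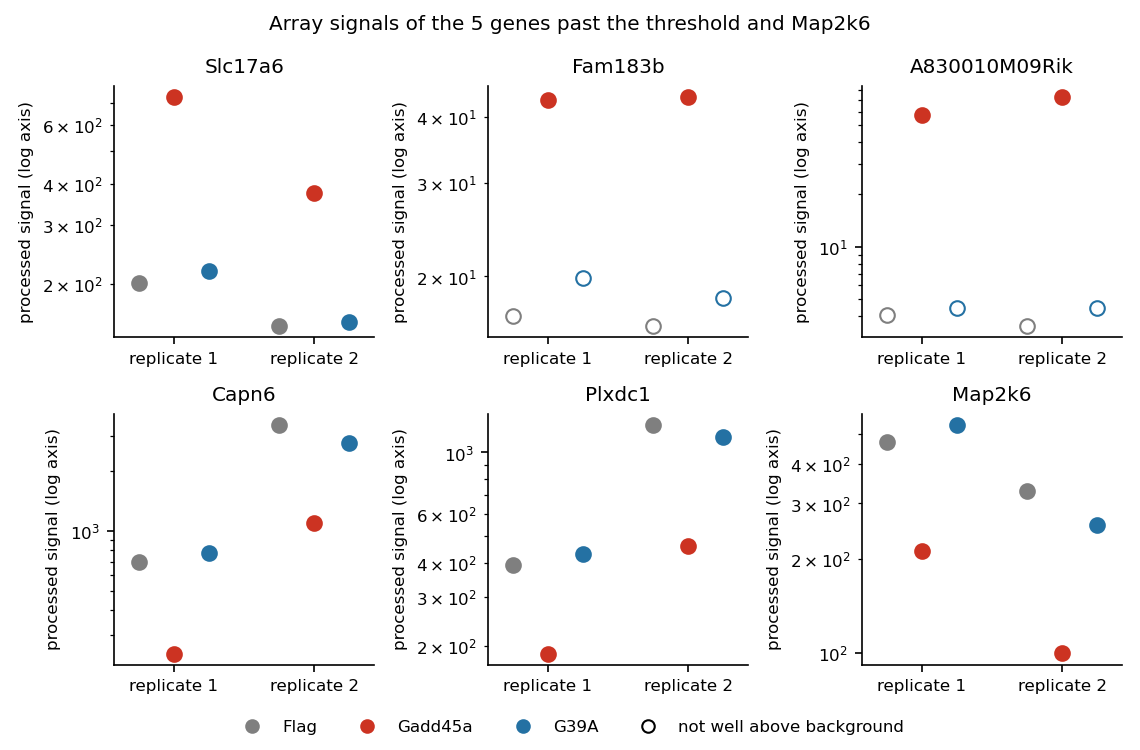
Processed signal (log axis) on each array for the 5 genes past the threshold and for Map2k6, grouped by replicate; open circles were not well above background. In every panel the Gadd45a array lies outside both controls of its replicate, and for Capn6 the replicates differ more than the groups do.

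Which genes pass depended on single arrays. Without the Flag array of replicate 1, or without the G39A array of replicate 1, 0 genes passed, against 2350 and 2125 at an unadjusted p under 0.05. Without the Flag or G39A array of replicate 2, 4 and 2 passed. Of the genes that passed in the fit to all arrays, only A830010M09Rik was among them. Without the Gadd45a array of replicate 1 or 2, 126 and 9 passed, with the remaining Gadd45a array assumed to vary like the others.

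Gadd45a has been linked to DNA demethylation, which these arrays do not measure. For 3 of the 7 genes at least 2-fold outside both controls in both replicates, the 250 bases before the start are shown, with CG pairs in capitals. Plxdc1 had no entry in the promoter table, and the windows of Sprr1a, Prl3d1 and Prl3d2 are not shown. The sequences are from RefSeq on GRCm38.p6, read 5′ to 3′ on the gene's strand, and the first listed start was taken where there were several.
Slc17a6, chr7:51621580-51621829, plus strand: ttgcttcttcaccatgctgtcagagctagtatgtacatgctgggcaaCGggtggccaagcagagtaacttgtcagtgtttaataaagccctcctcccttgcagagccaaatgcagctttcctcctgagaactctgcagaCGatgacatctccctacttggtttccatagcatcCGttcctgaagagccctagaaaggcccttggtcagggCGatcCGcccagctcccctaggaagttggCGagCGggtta
Capn6, chrX:143827413-143827662, minus strand: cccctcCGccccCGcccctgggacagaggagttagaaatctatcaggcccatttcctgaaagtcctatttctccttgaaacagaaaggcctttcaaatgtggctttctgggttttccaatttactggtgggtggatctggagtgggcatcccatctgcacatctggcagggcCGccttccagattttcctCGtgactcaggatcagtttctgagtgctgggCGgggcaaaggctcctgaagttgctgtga
Map2k6, chr11:110398852-110399101, plus strand: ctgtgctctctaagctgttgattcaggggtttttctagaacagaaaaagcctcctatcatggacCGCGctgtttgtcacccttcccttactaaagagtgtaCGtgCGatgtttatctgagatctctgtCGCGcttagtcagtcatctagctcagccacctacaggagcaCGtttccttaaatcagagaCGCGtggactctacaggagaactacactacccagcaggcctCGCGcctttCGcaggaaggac

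The Slc17a6 window holds 7 CG pairs, that of Capn6 holds 5 and that of Map2k6 holds 12. The median was 17 over the 9783 genes bright on all 6 arrays that matched the promoter table, counting each gene's richest listed start. Counted the same way, it was 5 over the 15 matched genes at least 1.5-fold above both controls in both replicates. Over the 17 at least 1.5-fold below it was 12. Methylation was not measured, and these counts describe the letters only.

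By position alone, 2210 of 14098 genes (15.7%) had the Gadd45a array above both controls in both replicates, and 2652 (18.8%) had it below both. Another 2313 (16.4%) lay on opposite sides in the replicates. In replicate 1 the Gadd45a array was above both controls for 28.1% of genes and below both for 34.7%, and in replicate 2 for 40.6% and 39.2%. These shares are the background against which every gene list below is read. Leaving out an array loosens the rule. Outside both controls on the same side in both replicates were 5067 of all placed genes and 4862 of the 14098, and over the latter the count became 11244 without the Gadd45a array of replicate 1 and 8857 without that of replicate 2.

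Large and repeated gaps were few. At least 2-fold above both controls in both replicates stood 4 genes (0.0284%): Slc17a6, Sprr1a, Prl3d1 and Prl3d2. At least 2-fold below stood 3 (0.0213%): Capn6, Plxdc1 and Map2k6. With 1.5-fold in place of 2-fold the counts were 21 (0.149%) and 25 (0.177%). In a single replicate more genes lay 2-fold outside: 19 above and 6 below in replicate 1, and 73 above and 63 below in replicate 2. Without the Flag array of replicate 1 the 2-fold total of 7 became 11, and without the Gadd45a array of replicate 1 or 2 it became 136 and 25.

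**Figure D2:**
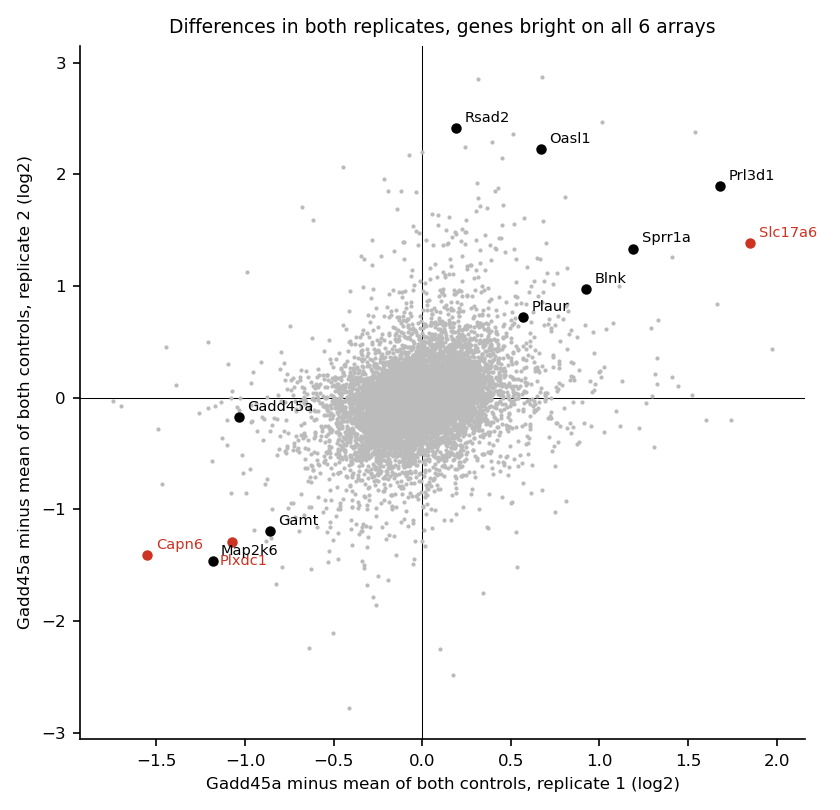
Difference of the Gadd45a array from the mean of both controls (log2) in replicate 1 (horizontal) and replicate 2 (vertical) for the 14098 genes well above background on all 6 arrays, with selected genes named and those past the threshold in red. Slc17a6, Prl3d1 and Sprr1a stand apart upwards in both replicates and Capn6, Plxdc1 and Map2k6 downwards, while Rsad2 and Oasl1 are far from 0 mainly in replicate 2.

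Map2k6 encodes the kinase that phosphorylates p38. Its probe (chr11:110374803-110374862) read 469.7, 212 and 533 in replicate 1 and 328, 99.8 and 256 in replicate 2. Both Gadd45a arrays lay below all 4 controls. The difference was -1.32 ± 0.12, with an adjusted p of 0.0925, which did not pass.

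Among the other genes of smallest p on the lower side were 2 metabolic ones. Gamt, the last enzyme of creatine synthesis, read 1915, 1092 and 2204 and then 3885, 1526 and 3516, a difference of -1.03 ± 0.101 (adjusted p = 0.0925). Selenbp1, an oxidase of sulfur compounds, read 592, 343 and 613 and then 815, 391 and 827 (-0.87 ± 0.0919). Its close relative Selenbp2 gave -0.92, and cross-hybridisation between such similar transcripts cannot be told apart from a shared difference. Gamt and Selenbp1 were lowest with Gadd45a in each replicate, and none of the 3 passed.

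The rest of the lower genes were of various kinds. Paqr4, of the progestin and adiponectin receptor family, read 1517, 955 and 1804 and then 1367, 652 and 1285 (-0.84). Gper1, a membrane oestrogen receptor, read 139.7, 79.6 and 182 and then 97.5, 36.8 and 80.0 (-1.07), and Stxbp6, a syntaxin-binding protein, gave -1.06. For Paqr4 and Gper1 both Gadd45a arrays lay below all 4 controls. Mettl24, Dipk1b and Arxes1 gave -0.63, -0.61 and -0.63. Adjusted p-values of these genes were 0.0925 to 0.103.

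On the higher side, Sprr1a, a precursor of the cornified envelope, read 416, 1019 and 516 in replicate 1 and 106, 218 and 78.6 in replicate 2. The Gadd45a array was highest in each replicate, although its replicate 2 value was below both replicate 1 controls. The difference was 1.26 ± 0.127 (adjusted p = 0.0942).

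Prl3d1 encodes placental lactogen I. It read 938, 2624 and 769 and then 55.4, 258 and 97.5, a difference of 1.79 ± 0.262 (adjusted p = 0.124). Prl3d2, which was not on the prolactin list, gave 1.96 ± 0.388 (adjusted p = 0.165). These paralogs are nearly identical, so the probes may read the same transcripts. Besides Prl3d1, 3 members of that list were bright on all 6 arrays: Prl2c5 and Prl2c3 gave 1.097 and 1.05, and the receptor gene Ghr -0.04. For Prl2c5 the Gadd45a array was between the controls in replicate 1, at 545 against 991 (Flag) and 324 (G39A), and far above them in replicate 2, at 8143 against 1479.8 and 2383.

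Plaur, the urokinase receptor, read 5091, 7532 and 5457 and then 3549, 5718 and 3766, so both Gadd45a arrays exceeded all 4 controls. The difference was 0.65 ± 0.0845 (adjusted p = 0.118), and its further probe gave 0.63. Gdf5, a BMP family ligand, read 439, 749 and 480.3 and then 150.3, 329.6 and 172 (0.94).

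Sstr4, a somatostatin receptor, gave 0.87, Tnfrsf23, a decoy receptor for TRAIL, gave 0.77, and Dcbld2, a membrane protein of the neuropilin type, gave 0.56. A further probe of Dcbld2 gave only 0.16. Tnfrsf23 read 115, 179 and 118 and then 169, 294 and 174.5, with the Gadd45a array highest in each replicate. Blnk, an adaptor of the B cell receptor, read 347, 622 and 333 and then 65.8, 112 and 55.0 (0.95).

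The remaining higher genes were Fetub, Pde1b, Myom2 and Zfp296. Fetub, a protease inhibitor secreted by liver, read 9709, 16773 and 11678 in replicate 1 and 118, 183 and 127 in replicate 2, and Gadd45a was highest at both levels (0.69). Pde1b, a calmodulin-dependent phosphodiesterase, gave 0.70, and Myom2, of the muscle M-band, gave 0.80. Zfp296, a zinc finger gene of pluripotent cells, read 1184, 1673 and 1267 and then 399.8, 618 and 407 (0.60, with 0.67 from its further probe). Adjusted p-values of the 9 genes from Gdf5 to Zfp296 were 0.104 to 0.123, and none passed.

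Dim transcripts gave bounds without a call. Ccr9, the receptor of the gut chemokine CCL25, read 3.92, 92.1 and 4.43 and then 10.6, 74.9 and 4.29, at least 4.41-fold higher with Gadd45a. Myrip, a linker of Rab and myosin, was at least 2.46-fold higher and the hair keratin-associated Krtap1-5 at least 2.005-fold. In the other direction, Fn3k, a deglycating kinase, read 95.9, 30.6 and 51.1 and then 50.2, 18.7 and 43.6, at least 2.04-fold lower. D3Ertd751e, Stfa3, Nckap5 and Pot1b were at least 1.70, 1.52, 1.44 and 1.20-fold lower. These genes were dim on every array of the lower side, and could be placed for that reason only where they differed.

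The Gadd45a probe itself (chr6:66985376-66985435) read 1017, 560.1 and 1395 in replicate 1 and 2309, 1870.1 and 2147 in replicate 2. It was lowest on the Gadd45a array in each replicate, a difference of -0.60 ± 0.203 (adjusted p = 0.297). The probe starts at base 878 of the transcript, and the labels do not say whether the introduced sequence holds that stretch. It therefore does not check the labels.

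Each gene list below was also read in each replicate alone, which leaves out the Gadd45a array of the other. The list medians in replicates 1 and 2 are given in that order. Over all 14098 genes, 5.52% were higher and 7.39% lower at an unadjusted p under 0.05, and each list's counts at that level are to be read against these shares.

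Gadd45 proteins act by binding, and 22 genes of the family and its partners were bright on all 6 arrays. None passed after adjustment; at an unadjusted p under 0.05, 1 was higher and 4 lower (background 5.52% and 7.39%). The Gadd45a array was above both controls in both replicates for 4 (18.2%) and below both for 8 (36.4%), against 15.7% and 18.8% over all genes. The median difference was -0.15 (-0.11 and -0.12 in the replicates), against -0.01 over all genes. Map3k4, the kinase that Gadd45 proteins activate, read 3649, 2803 and 3529 and then 3918, 2843 and 3632, lowest with Gadd45a in each replicate (-0.32 ± 0.0938, adjusted p = 0.263). Cdkn1a, which encodes p21, gave 0.18 and the oxidase Tet3 gave -0.30. Rxra gave -0.20, and its other probe 0.06, of opposite sign. Gadd45b and Gadd45g gave -0.17 and -0.06.

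Downstream of MAP3K4, the p38 and JNK list (27 genes) had a median of -0.01 (-0.03 and 0.03). Above both controls stood 6 members (22.2%) and below both 7 (25.9%), against 15.7% and 18.8% over all genes. At an unadjusted p under 0.05, 4 (14.8%) were lower and 1 (3.70%) higher (background 7.39% and 5.52%). Map3k5, the stress kinase ASK1, read 370 (Flag), 258 and 352 and then 91.8, 65.8 and 83.6, a difference of -0.38 ± 0.101 with -0.48 from its further probe. Mapk13, p38 delta, gave 0.43. Map2k6, with the values above, had the lowest adjusted p of the list.

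**Figure D3:**
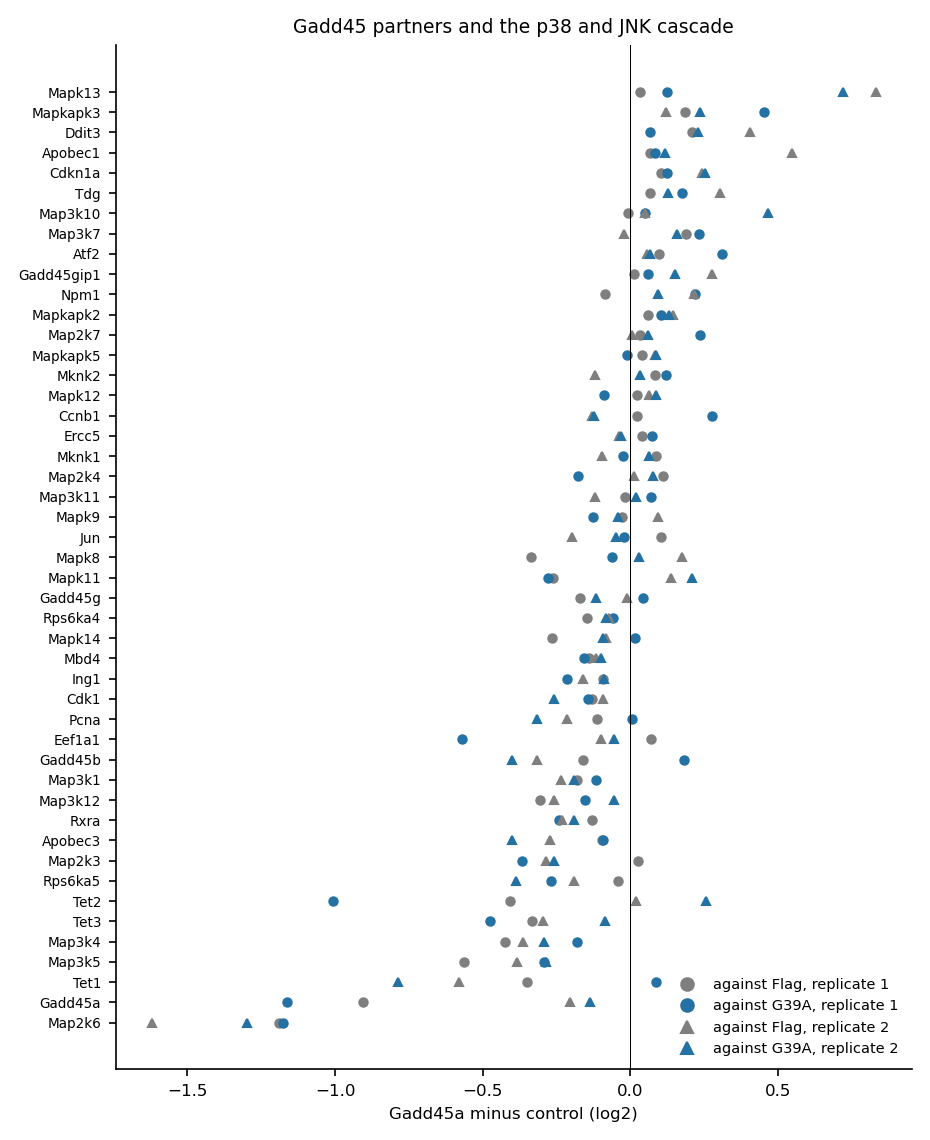
Gadd45a minus each control (log2) in each replicate for the Gadd45 partners and the p38 and JNK cascade; circles are replicate 1, triangles replicate 2, grey against Flag and blue against G39A. All 4 values of Map2k6 lie beyond -1, and those of Map3k4 and Map3k5 lie below 0.

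Immediate early factors, which MAP kinases induce, were split. Of 22 AP-1 and EGR genes, 3 were higher and 3 lower at an unadjusted p under 0.05 (13.6% each, background 5.52% and 7.39%). None passed, and the median was 0.05 (0.0030 and 0.18). Egr1 read 2687, 2020 and 3916 and then 2837, 1741 and 2409, a difference of -0.57 ± 0.124 (adjusted p = 0.181), and Egr2 gave -0.59 (0.147). Both Gadd45a values of Egr1 lay below all 4 controls. Fosl1, an AP-1 subunit, read 363, 533 and 436 and then 320.3, 483 and 363, above all 4 controls (0.53 ± 0.0911, adjusted p = 0.147). Among 20 MAP kinase phosphatases and Sprouty-type inhibitors the median was 0.18, with 6 above both controls and 1 below, but it was -0.04 in replicate 1 and 0.26 in replicate 2. In this list Dusp9 gave 0.70 and Spred1 -0.21.

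The list of senescence genes and secreted factors held the most small p-values of the 32 lists examined. Of 27, 11 were higher and 2 lower at an unadjusted p under 0.05 (background 5.52% and 7.39%), 12 stood above both controls in both replicates and 2 below, and the median was 0.32. None passed after adjustment. Il6 read 375, 532 and 391 and then 411, 986 and 470.0, so that both Gadd45a arrays exceeded all 4 controls (0.89 ± 0.177, adjusted p = 0.165). Gdf15, a stress cytokine, read 898, 1243 and 959.9 and then 915, 1264 and 909.8, with near equal values in both replicates (0.51 ± 0.074, adjusted p = 0.124). Cdkn2a, which encodes p16 and p19ARF, gave 0.48. The list's median was 0.53 without the Gadd45a array of replicate 1 and 0.13 without that of replicate 2.

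Chemokines overlapped with that list. Of 15 genes, 4 were higher and 1 lower at an unadjusted p under 0.05 (background 5.52% and 7.39%). The median was 0.13, but 0.02 in replicate 1 and 0.31 in replicate 2. Ccl2, which attracts monocytes, was brighter on both Gadd45a arrays than on all 4 controls (0.68 ± 0.161, adjusted p = 0.202), and its neighbour in function Ccl7 gave 0.60, with 0.64 from a further probe. Macrophage markers were measured beside these. Cd68, Csf1r, Itgam, Tyrobp and Lyz2 were well above background on all 6 arrays, and Ptprc on none. The summed macrophage marker signal was 1512, 1597 and 1807 in replicate 1 and 8195, 4513 and 5491 in replicate 2. Its part was not tested. Of the urokinase and plasmin system (16 genes), 4 stood above both controls and 4 below, with a median of 0.07 (-0.03 and 0.17). Besides Plaur, tissue factor F3 gave 0.42, while the activator Plat gave -0.20.

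Among 33 p53 targets, 9 (27.3%) stood above both controls and 4 (12.1%) below, against 15.7% and 18.8% over all genes. At an unadjusted p under 0.05, 7 (21.2%) were higher and 2 (6.06%) lower (background 5.52% and 7.39%). The median was 0.03 in the fit and in each replicate. None passed. Plk3, a stress-induced polo kinase, read 1051, 1404 and 1123 and then 1262, 1949 and 1218, above all 4 controls (0.58 ± 0.0965, adjusted p = 0.146). The death receptor Tnfrsf10b gave 0.35 and Sesn1, a stress-induced regulator of mTORC1, -0.39. Trp53 itself gave 0.03.

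Proliferation genes stood below the controls more often than above them. Of 30 genes of G2 and mitosis, 13 stood below both controls in both replicates and 0 above, where the shares over all genes were 18.8% and 15.7%. None passed after adjustment, 6 were lower and 0 higher at an unadjusted p under 0.05, and the median was -0.16 (-0.10 and -0.23). Bub1, of the spindle checkpoint, read 1014, 773 and 1204 and then 616, 531 and 687 (-0.34 ± 0.0989, adjusted p = 0.257), and Mki67, the proliferation marker, gave -0.34. Cenpf gave -0.27, but its further probe gave 1.36. Of 32 S phase genes, 10 (31.3%) stood below both and 0 above (median -0.12). None passed, and 3 (9.38%) were lower and 0 higher at an unadjusted p under 0.05 (background 7.39% and 5.52%). In replicate 1 alone 10 stood below both and 4 above, where the shares over all genes were 34.7% and 28.1%. The counts in replicate 2 were 29 and 2, against 39.2% and 40.6%. Pold1 and Mcm3, a polymerase and a helicase subunit, gave -0.25 and -0.26. The S phase median was -0.20 without the Gadd45a array of replicate 1 and -0.05 without that of replicate 2. Among 11 inhibitors of cyclin-dependent kinases and RB family genes the median was -0.19, but 0.03 in replicate 1 and -0.29 in replicate 2, and -0.10 without the Flag array of replicate 2. Of these, Cdkn2c gave -0.37 and Cdkn2a 0.48, on opposite sides.

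Sterol synthesis genes stood below both controls for 13 of 25 (52%) and above for 0, where the shares over all genes were 18.8% and 15.7%. The median was -0.12. At an unadjusted p under 0.05, 6 (24%) were lower and 0 higher (background 7.39% and 5.52%). None passed. Dhcr7, the last step to cholesterol, read 8583, 7082 and 9511 and then 9281, 5545 and 7715, lowest on both Gadd45a arrays (-0.41 ± 0.102, adjusted p = 0.213), and Tm7sf2, a sterol reductase, gave -0.45. Without the Gadd45a array of replicate 1 the list's median was -0.18.

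Other stress and metabolic lists had small medians. Their counts in both replicates are read against 15.7% above and 18.8% below over all genes. For 28 genes of glycolysis and hypoxia the median was 0.12, but -0.01 in replicate 1, with 9 above both controls and 14 below, and 0.25 in replicate 2, with 22 above and 2 below. In both replicates 7 stood above and 1 below, and the glucose transporter Slc2a1 read 3245, 4564 and 3520.2 and then 9931, 12613 and 10792 (0.43 ± 0.0846, adjusted p = 0.165). For 27 unfolded protein and ATF4 genes it was 0.12 (0.07 in each replicate), with 11 above and 1 below, and Atf3 and Ppp1r15a gave 0.34 each. For 23 NRF2 genes it was 0.14 (0.10 and 0.17), with 9 above and 2 below, and the glutathione transferases Gsta2 and Gsta1, close paralogs, gave 0.75 and 0.67. For 30 respiratory chain subunits it was 0.01 (-0.04 and 0.03), with 1 above and 5 below.

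Genes tied to DNA methylation and its repair-based removal, the activity linked to Gadd45a, gave no call. Of 24 methylation genes, 2 (8.33%) stood above both controls and 7 (29.2%) below, against 15.7% and 18.8% over all genes. Their median was -0.10 (-0.05 and -0.09). Of 38 excision repair genes, 4 stood above and 5 below, with a median of 0.01 (-0.02 in each replicate), and the glycosylase Neil3 read 479.7, 429 and 646 and then 165, 97.3 and 189 (-0.55 ± 0.142, adjusted p = 0.221).

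The fibroblast list (37 genes) had a median of -0.01 (-0.0027 and 0.02), with 7 above both controls and 8 below: Fn1, fibronectin, gave 0.36 and Pdgfra, a growth factor receptor, -0.30. Summed fibroblast marker signal was 401711 and 748096 on the Gadd45a arrays and 397102 to 746312 on the controls. Of 11 pluripotency genes bright on all arrays, 3 stood above both and 0 below, with a median of -0.05 (0.14 and -0.02). Klf4 and Myc, both known as reprogramming factors, gave -0.05 and 0.36 (adjusted p = 0.871 and 0.378). Of 15 epithelial genes, 13 had a difference above 0, where the median over all genes was -0.01. In both replicates 2 stood above both controls (13.3%) and 0 below, where the shares over all genes were 15.7% and 18.8%. The list's median was 0.10 (0.08 and 0.11). Of its members, Pkp3, of desmosomes, gave 0.66 and the keratin Krt18 gave 0.73. Thy1, a fibroblast surface marker, gave -0.03, and its further probe 0.17.

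Contractile genes stood above both controls for 11 of 23 (47.8%) and below for 0, where the shares over all genes were 15.7% and 18.8%. Their median was 0.07 (0.08 and 0.11). Des, desmin, read 179, 248 and 184 and then 538, 689 and 495, highest with Gadd45a in each replicate (0.50 ± 0.0812, adjusted p = 0.141). The muscle-defining genes Myod1, Myog, Myf5 and Ckm were well above background on no array. Of 9 cartilage and bone genes, 4 stood below and 0 above, with a median of -0.27 (-0.14 and -0.17), and Sox9 gave -0.40. Of 28 Hox genes, 3 stood above and 2 below, with a median of 0.07 (0.007 and 0.05). For 6 endothelial genes the median was 0.17, but 0.00034 in replicate 1 and 0.25 in replicate 2. For 11 neural genes, Slc17a6 among them, it was 0.18, but 0.33 in replicate 1 and -0.02 in replicate 2. Without the G39A array of replicate 2 it was 0.07. For 10 adipocyte genes it was -0.08 (-0.06 and -0.14), and Cebpa gave -0.55. Pecam1 and Cdh5, which define endothelium, and Plin1, of fat cells, were well above background on no array. The endothelial markers Kdr and Emcn and the adipocyte marker Fabp4 were so on all 6. Summed endothelial marker signal was 940, 982 and 1061 and then 600, 1204 and 599. Summed adipocyte marker signal was 242, 132 and 138 and then 3573, 3684 and 2865. Their part was not tested.

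**Figure D4:**
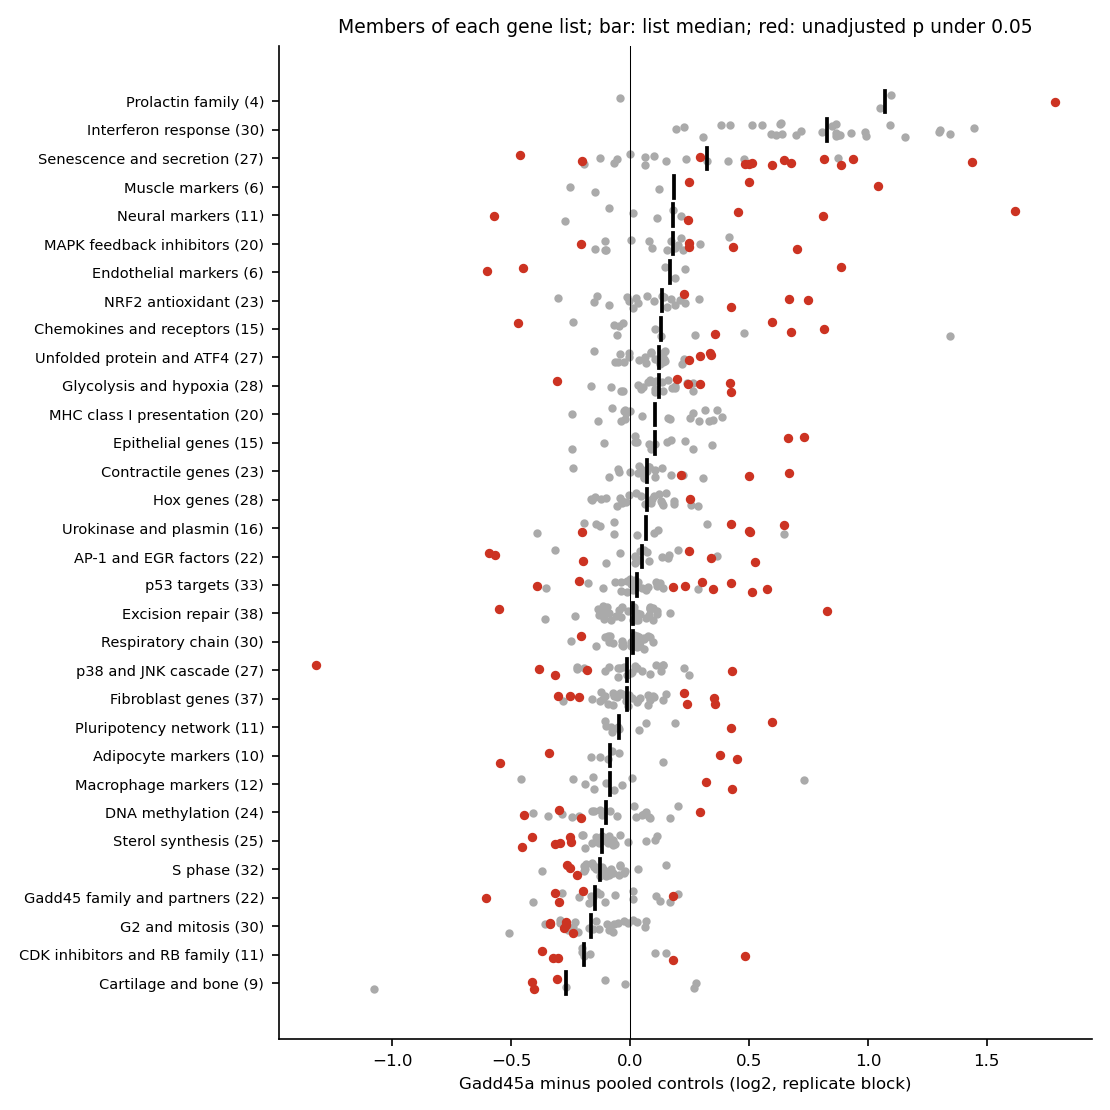
Difference between Gadd45a and the pooled controls (log2) for every list member well above background on all 6 arrays, lists ordered by median (bar), with the number of genes in brackets and unadjusted p under 0.05 in red. The interferon list has a median of 0.83 with no red point, and the G2 and mitosis list a median of -0.16 with 6.

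Interferon response genes had a large median without small p-values. All 30 had a difference above 0, with a median of 0.83, and 22 (73.3%) stood above both controls in both replicates, against 15.7% of all genes. None passed, and 0 reached an unadjusted p under 0.05. The control arrays themselves differed: the median G39A minus Flag difference was -0.14 in replicate 1 and 2.06 in replicate 2. The median difference of Gadd45a from Flag was 0.19 and 2.34 in replicates 1 and 2, and from G39A it was 0.33 in both. Without the Flag array of replicate 2 the list's median was 0.33, and without the Gadd45a array of replicate 2 it was 0.24.

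Oasl1, an antiviral member of the oligoadenylate synthetase family, read 141, 215 and 140.5 in replicate 1 and 36.8, 337 and 158 in replicate 2. Gadd45a was highest in each replicate, and the Flag array of replicate 2 was the lowest of all 6. Gbp2, an interferon-induced GTPase, read 2878, 3822 and 2666 and then 1658, 3701 and 3642, where the replicate 2 G39A array lay beside the Gadd45a array. Their differences were 1.45 ± 0.637 and 0.59 ± 0.317 (adjusted p = 0.397 and 0.477). Of 20 genes of MHC class I presentation, which interferon also induces, 7 stood above both controls and 0 below, with a median of 0.11. That median was -0.03 without the Flag array of replicate 2 and 0.02 without the Gadd45a array of replicate 2.

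**Figure D5:**
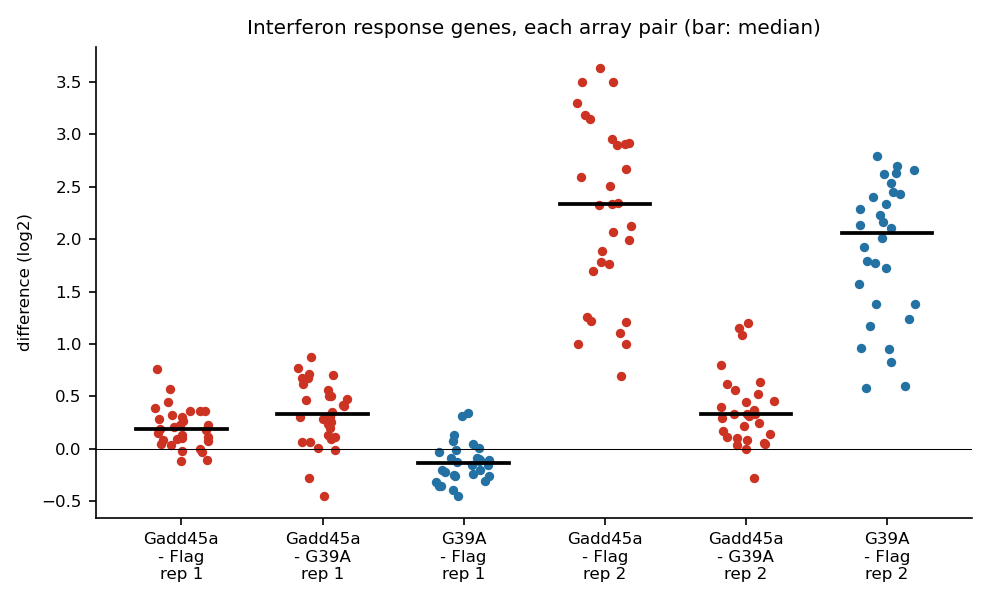
Differences between pairs of arrays (log2) for the 30 interferon response genes in each replicate, with the median as a bar; red involves Gadd45a and blue compares the controls. In replicate 2 both Gadd45a and G39A lie far above Flag (medians 2.34 and 2.06), and in replicate 1 all medians lie within 0.33 of 0.

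The list was made of known interferon targets, and their promoters were searched for the core of the interferon-stimulated response element, GAAANNGAAA, on both strands. A high share here follows from the choice of list and says nothing of Gadd45a. The core was found for 12 of the 21 listed genes that matched the promoter table (57.1%), against 3.14% of the 9783 matched genes bright on all arrays and 3.46% of all 27025 genes in the table. Of the genes chosen by position, it was found for 1 of 15 matched genes at least 1.5-fold above both controls in both replicates (6.67%) and 1 of 17 at least 1.5-fold below (5.88%). Of the 4 listed genes with smallest p, Irgm1 and Gbp2 hold it, and their windows are shown with the match in capitals; in Irgm1 overlapping matches merge.
Irgm1, chr11:48871421-48871670, minus strand: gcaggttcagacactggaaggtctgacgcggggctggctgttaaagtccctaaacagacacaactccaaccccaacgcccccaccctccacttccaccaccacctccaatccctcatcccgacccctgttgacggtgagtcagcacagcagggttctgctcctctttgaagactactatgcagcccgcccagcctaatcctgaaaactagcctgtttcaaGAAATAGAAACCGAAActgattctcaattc
Gbp2, chr3:142620413-142620662, plus strand: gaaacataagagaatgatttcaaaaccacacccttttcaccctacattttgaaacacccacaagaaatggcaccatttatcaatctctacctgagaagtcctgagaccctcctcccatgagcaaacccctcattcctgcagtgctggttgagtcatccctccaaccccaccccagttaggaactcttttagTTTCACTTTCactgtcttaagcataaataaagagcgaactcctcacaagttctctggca
A match describes these letters and not a site in use.

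Pooling the controls treats Flag and G39A as equal, so the controls were also set apart. Each of these fits shares arrays with the others. Against Flag alone 0 genes passed (0.0%), with 1224 of 14098 at an unadjusted p under 0.05 (8.68%). Against G39A alone 2 passed (0.0138%), with 1313 (9.31%). A830010M09Rik, dim on every control array, was 1 of these 2. Slc17a6, Capn6 and Plxdc1 passed against neither control. Their adjusted p-values from limma were 0.314, 0.209 and 0.314 against Flag and 0.209, 0.162 and 0.209 against G39A. G39A against Flag gave 0 (0.0%), with 319 (2.26%). The pooled comparison had 1820 of the 14098 at that level (12.9%). It is a 2-level fit with more control arrays and more residual degrees of freedom than these 3-group contrasts, so the shares are not alike. Over all 14509 placed genes the pooled difference had 1971 at that level in the 2-level fit and 1701 in the 3-group model. The median size of the difference between G39A and Flag was 0.147 in replicate 1 and 0.0877 in replicate 2. That between Gadd45a and the control mean was 0.109 and 0.128. These are unlike measures, since the first sets 1 array against 1 and the second sets 1 array against a mean of 2. In replicate 1 the G39A array also lay alone on its slide.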

How the data were processed

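Total RNA of 6 samples was amplified, labelled with Cy3 and hybridised to 1-colour Agilent mouse arrays, per the labels' protocols. Spot intensity was extracted with Agilent Feature Extraction (10.7 in the submitters' processing notes), background-subtracted and detrended within each array by the authors, with probe positions on mm9, per the file headers. The deposited marks of 0 or 1 tell which spots exceed background, are saturated (none here) or are outliers. The deposited value table is on the log2 scale with equal column medians (6.17), follows each array's own intensity, and served as an alternative; how else it was made is not stated.

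Here, unmarked spots of a probe were averaged, and the 75th percentile of each array's log2 intensity was subtracted. RefSeq (GRCm38.p6) named 27668 probes; the rest kept the file's name. limma 3.58 in R 4.3 was fitted to all 6 arrays with the replicate number as a block (3 residual degrees of freedom), with Benjamini-Hochberg adjustment over 14509 genes. The number of arrays limits precision: the median SE was 0.0961 (log2). Arrays of the same number deviated together (r 0.923 to 0.939 between groups), which the labels do not explain. Alternatives were other normalizations, filters, models and each array left out. The code was tested on simulated data.

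Named genes are 12 of the study's question, the 12 of smallest p each way outside both controls in both replicates, up to 6 each way that were dim on 1 side, up to 4 per list, those past the threshold and those 2-fold outside; a few other list members were named after their values were seen. The members and the 32 gene lists (815 symbols) were chosen with earlier results of these data known.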

Additional observations from a re-analysis of the deposited data

How the results depend on the processing

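The 5 genes past the threshold became 1 without a replicate block, so the pairing by number matters for this count; 1 in a 3-group model with the replicate block; and 0 with slide as a fixed block, which sets aside the G39A array alone on its slide (2125 at an unadjusted p under 0.05). A830010M09Rik, dim on every control array, was the gene that passed in both models with 1. Quantile normalization and the deposited value table gave 1 each, again A830010M09Rik. In these 2 settings the adjusted p was 0.0755 and 0.0740 for Slc17a6. For Capn6 and for Plxdc1 it was 0.0688 and 0.0672, so none of the 3 passed. Median centring gave 12 (6 higher, 6 lower) and normexp with quantile normalization 12 (5 higher, 7 lower). Requiring brightness on all 6 arrays left 3 (Capn6, Plxdc1 and Slc17a6), on both arrays of 1 group 1 (A830010M09Rik), and no filter 0 (2867 unadjusted). An intensity trend gave 19 (7 higher, 12 lower). Leaving out each array gave 0 to 126.

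The count outside both controls on the same side, 5067 (4862 over genes bright on all arrays), ranged from 5535 to 11244 over the latter genes with an array left out. The 2-fold count of 7 became 4 with normexp and 46 at 1.5-fold, and 7 to 136 with an array left out.

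Of the alternative values of 44 named genes, 540 kept direction and side of the threshold, 44 lost the call, 31 gained one, and 1 reversed: Gadd45b ranged from -0.36 (without the Gadd45a array of replicate 1) to 0.011 (without that of replicate 2). Only the 5 genes past the threshold had a call to lose, and most of the kept values are of genes that did not pass in the main fit. Of its 14 alternatives, A830010M09Rik passed in 11 and Slc17a6 in 5. Capn6 and Plxdc1 passed in 4 each and Fam183b in 2. The Slc17a6 difference ranged from 1.37 to 1.85. List medians kept their value within the spread of members in 348 alternatives and moved in 68, and 32 changed sign. The causes were not tested. Groups of 2 arrays, slides that follow replicates and signals near background limit what these arrays can show.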
